A study of Mus musculus with 12 samples.

Results

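The genes described here are 43 genes of DNA replication and mitosis, chosen by symbol from a table of read counts over 52636 mouse genes. They fall into 18 replication genes, 6 regulators of S phase entry or of the S phase checkpoint, and 19 mitotic genes. All 43 were found in the table, and all 43 were among the 17993 genes that passed the filter on low counts. RNA was sequenced from the back skin of 8-week-old female BALB/c mice in 4 groups of 3 independent samples, with 1 library per sample. Control mice received 40 μl of vehicle and LL37 mice received the same volume of LL37, a peptide released from the human antimicrobial protein cathelicidin. Both were injected into the dermis 2 times a day for 2 days. LL37+RAPA mice and control+RAPA mice had the same injections and also received rapamycin (RAPA), an inhibitor of the mTORC1 kinase complex, at 4 mg/kg per day. Per a figure legend of the study, the LL37 and control mice were given vehicle in place of RAPA. The strain is taken from the labels, whereas the age, the sex, the injection scheme, and the dose and intraperitoneal route of RAPA come from the study's general methods, which do not single out the sequenced mice. The labels give no engineered allele for any group, and the peptide is human while the skin is murine.

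Each library held between 15734559 and 23271784 counts. Values are given as CPM, which are counts scaled to a common library size after normalization for library composition, and 3 counts in a library equal 0.123 to 0.184 CPM, whereas the lowest raw count of any of the 43 genes in any library was 18. The keratin genes Krt5, Krt14 and Krt10, which mark epidermis, were at 3466 CPM or more in all 12 libraries. The first principal component placed LL37 replicate 3 at 64.4, away from the other LL37 libraries at 133 and 129, so counts of genes are also given without that library. A gene was called when its Benjamini-Hochberg adjusted p in edgeR's quasi-likelihood test was under 0.05, and it is termed a DEG when its log2 fold change also exceeded 1 in size.

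Before a cell copies its DNA, Cdc6 and Cdt1 load the ring of Mcm2 to Mcm7 proteins onto replication origins, and Cdc45 and the GINS complex then turn the ring into an active helicase. Cyclin D1 and the E-type cyclins, acting with their kinases, free E2F factors that switch on these genes together with the enzymes that make nucleotides. Mitotic genes, which include Cdk1, its cyclins, the Aurora kinases and the spindle checkpoint, are switched on later in the cycle by complexes that contain B-Myb and Foxm1, and in healthy skin dividing cells sit mainly in the basal epidermis and the hair follicle.

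The 2 classes also differ in the letters of their promoters, so a few are printed here to show what each class carries. RefSeq sequences (build GRCm38.p6, from 250 bases before to 50 bases after the start of transcription) were matched by symbol for 34 of the 43 genes. Only the first listed start of each gene was used. Mcm4, Gins1, Gins2, Ccnd1, Ccne2, Myc, Ccna2, Aurkb and Foxm1 are named only. The E2F motif was searched as TTTCCCGC, TTTCGCGC, TTTGCCGC and TTTGGCGC, and the CHR (cell cycle genes homology region) as TTTGAA, each on both strands. The letters in capitals mark these matches, and in Mcm5 they join 2 overlapping E2F matches on opposite strands. The replication promoters shown are Mcm3 (chr1:20820263-20820562, minus strand), Mcm5 (chr8:75109259-75109558, plus strand) and Cdc6 (chr11:98907901-98908200, plus strand). The Cdc6 window lies inside the gene as GENCODE annotates it, with a gene start at 98907801.
Mcm3: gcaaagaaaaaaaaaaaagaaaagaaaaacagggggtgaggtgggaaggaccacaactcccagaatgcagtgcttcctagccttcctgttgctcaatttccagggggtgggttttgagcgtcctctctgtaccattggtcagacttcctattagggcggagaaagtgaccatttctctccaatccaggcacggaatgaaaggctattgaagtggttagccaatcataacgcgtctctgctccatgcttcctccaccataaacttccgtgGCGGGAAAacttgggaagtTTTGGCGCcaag
Mcm5: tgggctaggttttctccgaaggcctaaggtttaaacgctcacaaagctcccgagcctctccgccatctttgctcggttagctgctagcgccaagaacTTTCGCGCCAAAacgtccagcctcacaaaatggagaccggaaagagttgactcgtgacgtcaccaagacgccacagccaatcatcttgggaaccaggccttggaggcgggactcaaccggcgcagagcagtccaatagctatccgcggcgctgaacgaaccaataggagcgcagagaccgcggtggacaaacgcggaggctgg
Cdc6: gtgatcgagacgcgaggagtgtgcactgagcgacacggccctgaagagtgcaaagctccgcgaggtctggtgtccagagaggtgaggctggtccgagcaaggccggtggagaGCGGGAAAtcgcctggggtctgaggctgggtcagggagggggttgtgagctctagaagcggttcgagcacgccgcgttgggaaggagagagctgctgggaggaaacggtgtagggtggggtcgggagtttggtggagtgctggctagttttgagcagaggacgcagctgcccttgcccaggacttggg
The mitotic promoters shown are Cdk1 (chr10:69352863-69353162, minus strand), which holds both motifs, Ccnb2 (chr9:70421505-70421804, minus strand), Plk1 (chr7:122159185-122159484, plus strand) and Top2a (chr11:99024140-99024439, minus strand).
Cdk1: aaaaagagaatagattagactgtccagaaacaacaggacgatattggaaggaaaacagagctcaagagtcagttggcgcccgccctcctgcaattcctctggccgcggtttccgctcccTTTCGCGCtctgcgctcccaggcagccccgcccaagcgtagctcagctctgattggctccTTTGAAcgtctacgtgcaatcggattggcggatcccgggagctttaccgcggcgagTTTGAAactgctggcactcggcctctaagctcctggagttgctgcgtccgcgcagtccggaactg
Ccnb2: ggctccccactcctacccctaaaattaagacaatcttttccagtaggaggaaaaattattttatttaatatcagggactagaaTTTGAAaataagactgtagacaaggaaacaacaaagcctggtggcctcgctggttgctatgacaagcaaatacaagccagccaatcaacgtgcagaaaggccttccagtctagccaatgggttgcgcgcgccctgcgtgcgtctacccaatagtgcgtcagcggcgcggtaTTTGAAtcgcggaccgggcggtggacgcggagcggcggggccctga
Plk1: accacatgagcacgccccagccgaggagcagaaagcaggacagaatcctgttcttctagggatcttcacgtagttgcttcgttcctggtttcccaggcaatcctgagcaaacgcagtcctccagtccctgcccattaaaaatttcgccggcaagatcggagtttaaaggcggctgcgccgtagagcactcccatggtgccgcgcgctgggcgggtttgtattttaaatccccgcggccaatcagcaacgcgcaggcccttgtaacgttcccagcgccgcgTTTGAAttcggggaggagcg
Top2a: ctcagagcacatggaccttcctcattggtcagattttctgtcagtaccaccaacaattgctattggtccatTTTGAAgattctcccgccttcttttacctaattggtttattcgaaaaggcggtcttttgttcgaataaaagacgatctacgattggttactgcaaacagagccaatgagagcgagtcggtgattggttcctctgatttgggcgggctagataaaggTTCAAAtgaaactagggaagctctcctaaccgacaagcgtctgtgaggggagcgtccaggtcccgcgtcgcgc

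The E2F letters stood in 6 of 15 matched replication promoters (Mcm3, Mcm5, Mcm6, Mcm7, Cdc6 and Cdt1), in 1 of 16 mitotic promoters (Cdk1) and in 0 of 3 regulator promoters, against 2.32% of 27025 mouse promoters of the same length. The CHR letters stood in 12 of 16 mitotic promoters and in 2 of 15 replication promoters (Mcm2 and Cdc45), against 18.1% of all promoters. The 16 CHR matches in mitotic promoters had a median position of -18.5 bases from the start. The CCAAT box (CCAAT on either strand) was found in 15 of 16 mitotic and 11 of 15 replication promoters, against 37.9% of all. Among the 12460 promoters of tested genes, the shares with matches were 3.71% (E2F), 12.4% (CHR) and 37.8% (CCAAT box). These matches describe the letters in the window and no binding was measured.

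All 43 genes were called higher with LL37 than with vehicle. Over all tested genes 21.0% were called higher and the median log2 fold change was near 0 (-0.005), while the median over the 43 genes was 1.42. DEGs numbered 36 of 43 against 8.73% of all tested genes, and 42 of 43 genes had no overlap between the 3 LL37 and the 3 control libraries against 23.8% of all, with Myc as the exception. Together the 43 genes took 0.0598 to 0.0808% of the normalized counts in control and 0.170 to 0.203% in LL37. In bulk skin, more cells in cycle and more of these RNAs per cell cannot be told apart.

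**Figure D1:**
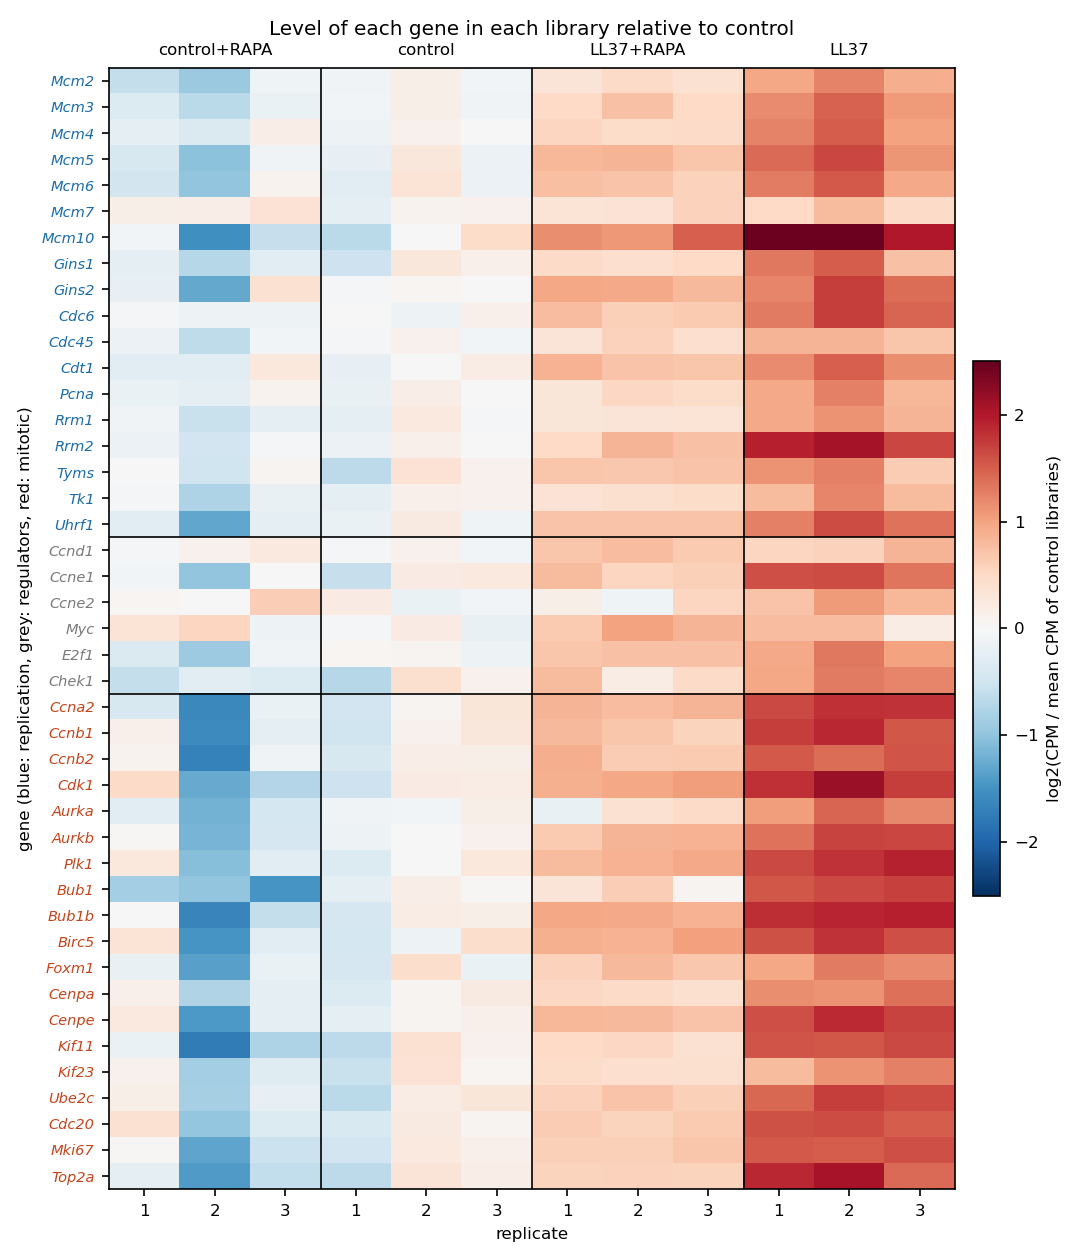
Level of each of the 43 genes (rows) in each of the 12 libraries (columns, replicates 1 to 3 of each group), as log2 of CPM over the mean CPM of the control libraries. Red is above and blue below the control mean, the 3 LL37 columns are the reddest for most rows, and control+RAPA replicate 2 is the bluest column among the mitotic genes.

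Among the replication genes, all 18 were called higher in LL37 than in control, 14 as DEGs, with a median log2 fold change of 1.26 and a range from 0.59 for Mcm7 to 2.31 for Mcm10. Mcm2, a subunit of the helicase ring, stood at 26.9, 31.7 and 27.2 CPM in control replicates 1 to 3 and at 55.8, 68.0 and 53.8 in LL37, a log2 fold change of 1.05 ± 0.17 (SE, adjusted p = 0.000663). Mcm5, another subunit, stood at 22.5, 31.7 and 23.5 CPM in control and at 69.6, 82.9 and 55.8 in LL37 (1.42 ± 0.22, adjusted p = 0.000444). Mcm7 rose least, from 36.7, 45.5 and 45.7 CPM to 60.4, 73.4 and 59.2 (0.59 ± 0.12, adjusted p = 0.00246). Thus every LL37 library exceeded every control library for these ring subunits, although the size of the rise differed. The exons of Mcm7 overlap Mir25 and Mir93 on its own strand and Cops6 and Ap4m1 on the other strand.

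Mcm10, which helps to start the loaded helicase, had the largest fold change of the replication genes, and it was also the one with the fewest reads. It stood at 1.62, 2.56 and 3.53 CPM in control and at 14.1, 14.0 and 10.4 in LL37, 4.97-fold higher (log2 2.31 ± 0.33, adjusted p = 0.000263). The loading factor Cdc6 rose from 4.26, 3.90 and 4.64 CPM to 10.6, 14.1 and 11.7 (1.51 ± 0.15, adjusted p = 2.34e-05). Its partner Cdt1 rose from 10.35, 11.996 and 13.59 CPM to 27.3, 33.8 and 26.9 (1.29 ± 0.17, adjusted p = 0.000136). The remaining helicase genes Mcm3, Mcm4, Mcm6, Gins1, Gins2 and Cdc45 had log2 fold changes between 0.80 (Cdc45) and 1.47 (Gins2), each with adjusted p of at most 0.00233 in edgeR.

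Nucleotide supply and the sliding clamp rose as well. Rrm2, the regulated subunit of ribonucleotide reductase, had the smallest p of the 43 genes in this comparison, with 13.9, 16.9 and 15.7 CPM in control and 59.7, 65.2 and 49.0 in LL37 (3.74-fold, log2 1.90 ± 0.15, adjusted p = 4.95e-06). Its large subunit partner Rrm1 rose less, by 0.97 ± 0.14. The thymidine kinase gene Tk1 stood at 22.8, 29.4 and 29.0 CPM in control and at 46.8, 63.0 and 46.9 in LL37 (0.95 ± 0.18, adjusted p = 0.00162), and Tyms, the thymidylate synthase gene, rose by 1.03 ± 0.25. Pcna, the sliding clamp of the polymerases, rose from 66.6, 85.3 and 76.5 CPM to 147, 183 and 135 (1.03 ± 0.14, adjusted p = 0.000151). Uhrf1, which brings the maintenance DNA methyltransferase to new DNA, rose from 20.3, 26.7 and 21.1 CPM to 54.5, 69.9 and 58.2 (1.42 ± 0.23, adjusted p = 0.0005).

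All 6 regulators were called higher, with a median log2 fold change of 0.98, and 3 of them were DEGs (Ccne1, Chek1 and E2f1). Ccne1, the cyclin E1 gene, rose from 2.37, 4.05 and 4.16 CPM to 10.7, 11.0 and 8.90 (1.53 ± 0.27, adjusted p = 0.000907). E2f1, the transcription factor released at S phase entry, rose from 14.0, 14.3 and 12.5 CPM to 26.1, 33.8 and 27.5 (1.10 ± 0.18, adjusted p = 0.000568). Chek1, a kinase of the replication checkpoint, rose from 1.94, 4.20 and 3.42 CPM to 6.20, 7.84 and 7.40 (1.16 ± 0.26, adjusted p = 0.00439). The cyclin E2 gene Ccne2 rose by 0.87 ± 0.22 without overlap between the groups.

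Among the regulators, the smallest rises were those of Ccnd1 and Myc. Ccnd1, the cyclin D1 gene, stood at 34.5, 38.2 and 34.1 CPM in control and at 51.7, 53.3 and 64.3 in LL37 (0.66 ± 0.11, adjusted p = 0.00058). Myc, a growth factor-induced transcription factor, stood at 63.8, 75.2 and 57.5 CPM in control and at 112, 112 and 74.6 in LL37 (0.61 ± 0.20, adjusted p = 0.0269), and LL37 replicate 3 lay within the control range. Its call was lost without control replicate 1, control replicate 3, LL37 replicate 1 or LL37 replicate 2, with adjusted p between 0.0662 and 0.0972, whereas the calls of the other 42 genes held under all 20 alternatives tried.

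The mitotic genes had larger fold changes than the replication genes. All 19 were called and all 19 were DEGs, with a median log2 fold change of 1.60 and a range from 1.07 (Kif23) to 1.91 (Cdk1). Of the 19 mitotic genes, 15 lay above the median of the replication genes, and of the 18 replication genes 2 (Mcm10 and Rrm2) lay above the median of the mitotic genes. The difference of the medians, replication minus mitotic, was -0.34, between -0.47 and -0.24 when single libraries were left out. No test was applied to this difference, since the genes were chosen with earlier results known.

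Cdk1, the kinase that drives entry into mitosis, stood at 5.72, 9.43 and 9.27 CPM in control and at 28.9, 36.3 and 26.9 in LL37, 3.76-fold higher (log2 1.91 ± 0.35, adjusted p = 0.0012). Its partner cyclin gene Ccnb1 rose from 6.04, 9.13 and 10.3 CPM to 28.0, 31.3 and 24.9 (1.72 ± 0.33, adjusted p = 0.00152). The polo-like kinase gene Plk1 rose from 5.39, 6.87 and 8.11 CPM to 21.3, 23.7 and 25.7 (1.79 ± 0.26, adjusted p = 0.000291). Each LL37 library thus held at least 21.3 CPM of these kinases and cyclin, against at most 10.3 CPM in any control library. Ccna2 and Ccnb2, the cyclin A2 and B2 genes, rose by 1.76 ± 0.29 and 1.50 ± 0.33, and the Aurora kinase genes Aurka and Aurkb by 1.24 ± 0.23 and 1.58 ± 0.23.

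Top2a, the topoisomerase that untangles sister chromosomes, stood at 24.4, 47.9 and 43.3 CPM in control and at 143, 159.7 and 103 in LL37 (1.81 ± 0.29, adjusted p = 0.000563). Mki67, the gene of the proliferation marker Ki-67, stood at 25.3, 41.4 and 38.6 CPM in control and at 101, 99.7 and 107 in LL37 (1.55 ± 0.27, adjusted p = 0.000852). For both genes control replicate 1 was the lowest control library, as it was for all 19 mitotic genes and for 15 of the 18 replication genes. The spindle checkpoint kinase gene Bub1 rose from 2.59, 3.43 and 3.11 CPM to 8.98, 9.56 and 9.89 (1.64 ± 0.20, adjusted p = 9.89e-05), and its relative Bub1b rose by 1.90 ± 0.30.

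Cdc20, an activator of the anaphase-promoting complex, rose from 11.9, 18.1 and 16.3 CPM to 46.3, 47.6 and 43.9 (1.57 ± 0.26, adjusted p = 0.000714). Birc5, the survivin subunit of the chromosomal passenger complex, rose from 5.93, 7.43 and 10.9 CPM to 24.4, 28.4 and 24.6 (1.67 ± 0.34, adjusted p = 0.00229). Foxm1, a transcription factor of the mitotic genes, rose from 7.55, 13.7 and 8.96 CPM to 19.8, 24.7 and 22.9 (1.16 ± 0.28, adjusted p = 0.00647). With Aurka, Cenpa and Kif23 it was among the 4 mitotic genes below the replication median. Kif23, a motor of the central spindle, rose from 7.12, 13.5 and 10.7 CPM to 18.0, 22.7 and 25.1 (1.07 ± 0.25, adjusted p = 0.00554). The other genes were the centromere genes Cenpa (1.23 ± 0.20) and Cenpe (1.72 ± 0.30), the spindle motor gene Kif11 (1.59 ± 0.32) and the ubiquitin-conjugating enzyme gene Ube2c (1.60 ± 0.26).

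**Figure D2:**
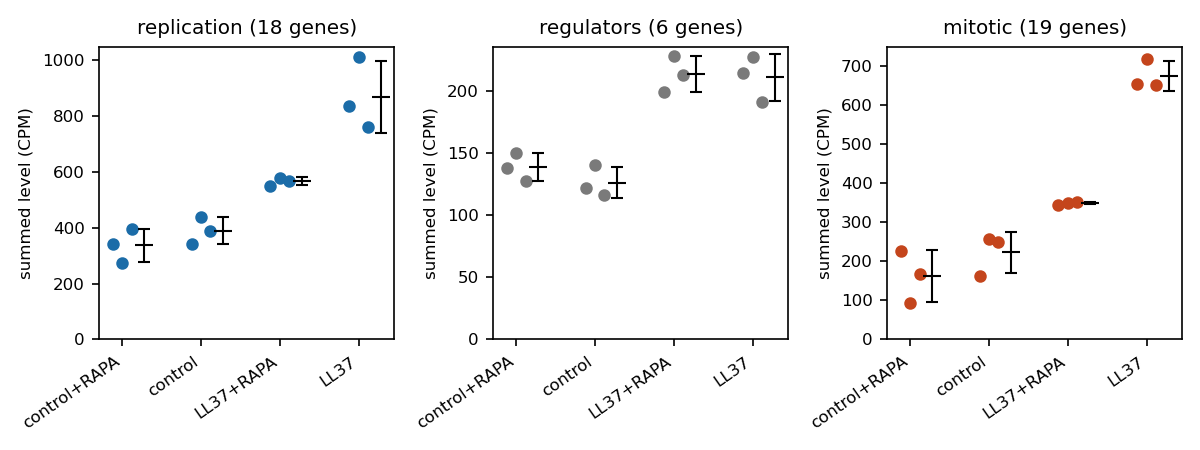
Summed CPM of the replication, regulator and mitotic genes, 1 point per library, with the mean and SD of the 3 libraries of each group in black beside the points. The LL37 and LL37+RAPA points do not overlap for the replication and mitotic genes and do overlap for the regulators.

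LL37 skin with and without RAPA was compared next. Cell type markers also differed between these groups, and a direct dependence of the transcripts on mTORC1 was not tested. Of the 43 genes, 28 were called higher in LL37 than in LL37+RAPA and 0 were called lower, against 11.8% of all tested genes called higher and 12.4% called lower, and the median log2 fold change was 0.76. DEGs numbered 6 (Mcm10, Rrm2, Ccnb1, Bub1, Kif11 and Top2a), against 4.33% of all. In 39 of 43 genes the 3 LL37 libraries lay above all 3 LL37+RAPA libraries, against 17.6% of all, and the exceptions were Mcm7, Tyms, Ccnd1 and Myc. By list, 14 of 19 mitotic, 12 of 18 replication and 2 of 6 regulator genes were called, with medians of 0.94, 0.64 and 0.52.

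**Figure D3:**
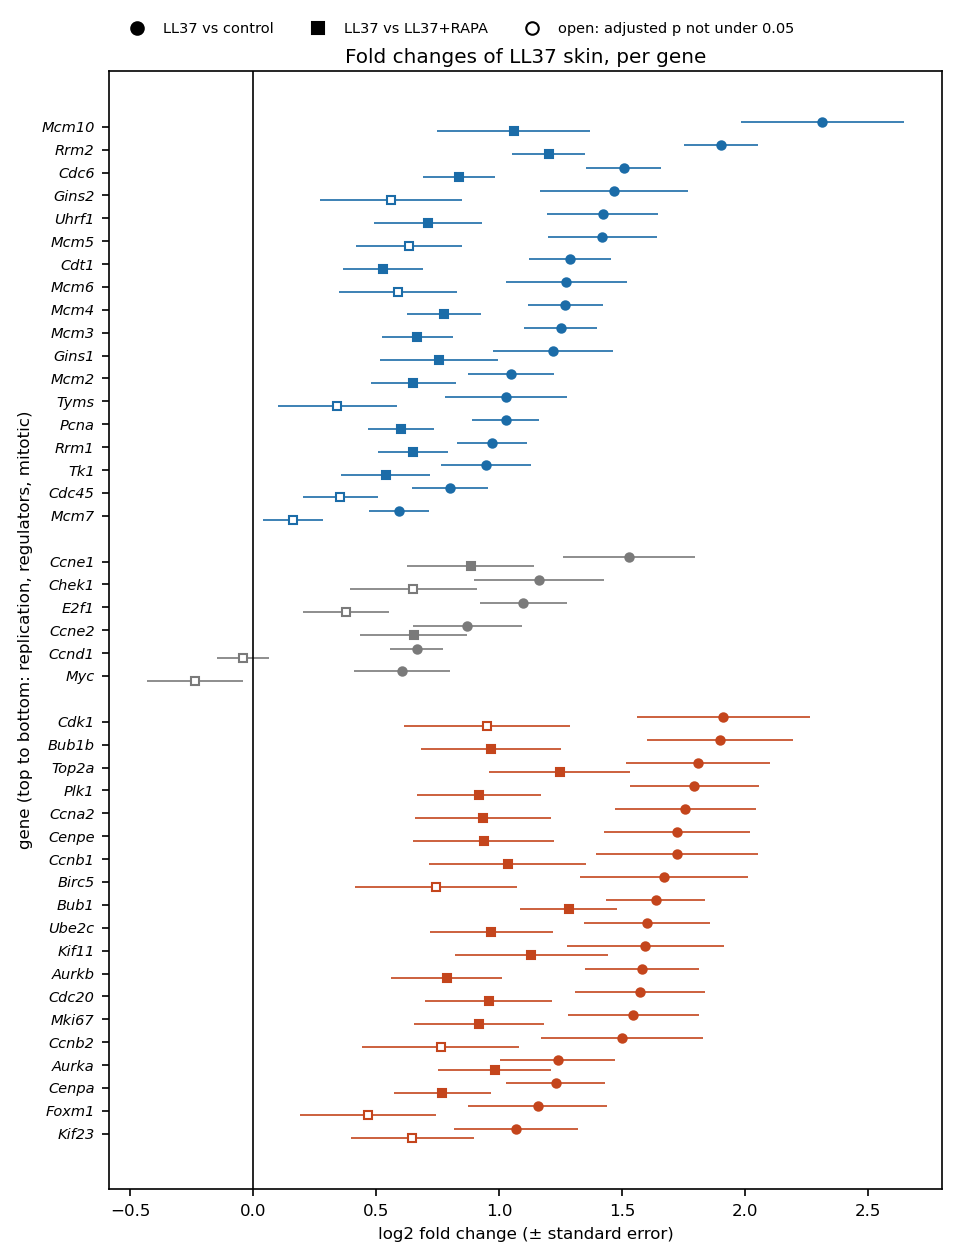
Log2 fold change of each gene, with its standard error, in LL37 vs control (circles) and in LL37 vs LL37+RAPA (squares), filled where the adjusted p was under 0.05. All circles are filled and lie above 0.5, while the squares of Ccnd1 and Myc lie below 0, a sign that turned for Ccnd1 without LL37 replicate 1 or 2.

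Rrm2 and Bub1 had the smallest p of these genes. Rrm2 stood at 21.9, 27.9 and 25.7 CPM in LL37+RAPA, so that its 3 LL37 libraries were 2.30-fold higher (log2 1.20 ± 0.15, adjusted p = 0.00124). Bub1 stood at 3.80, 4.67 and 3.20 CPM in LL37+RAPA (1.28 ± 0.20 in favour of LL37, adjusted p = 0.00206). Top2a stood at 56.4, 57.4 and 56.9 CPM, under the lowest LL37 library by a wide margin (1.25 ± 0.29, adjusted p = 0.0107). These 3 genes and Mcm3, Mcm4, Cdc6, Pcna and Rrm1 were the 8 genes called under all 20 alternatives.

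Among the other replication genes, Mcm10 stood at 5.74, 5.44 and 7.26 CPM in LL37+RAPA (1.06 ± 0.31, adjusted p = 0.0299) and Cdc6 at 7.26, 6.43 and 6.67 (0.84 ± 0.15, adjusted p = 0.00338). Pcna stood at 94.1, 108 and 105 CPM (0.60 ± 0.13, adjusted p = 0.00962) and Mcm2 at 35.6, 40.1 and 37.4 (0.65 ± 0.17, adjusted p = 0.02). For each of these genes the 3 LL37+RAPA libraries lay below the 3 LL37 libraries. Uhrf1 stood at 37.1, 37.1 and 37.3 CPM (0.71 ± 0.22, adjusted p = 0.0368), Cdt1 at 21.9, 19.6 and 19.5 (0.53 ± 0.16, adjusted p = 0.0363) and Tk1 at 34.8, 35.7 and 37.3 (0.54 ± 0.18, adjusted p = 0.0493). Gins1, with 0.76 ± 0.24, was the remaining called gene of this list beside Mcm3 (0.67), Mcm4 (0.78) and Rrm1 (0.65).

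Not called were Mcm5, Mcm6, Mcm7, Gins2, Cdc45 and Tyms. Mcm5 stood at 46.0, 46.4 and 41.9 CPM in LL37+RAPA (0.63 ± 0.22, adjusted p = 0.0528), just past the threshold. Mcm7 stood at 54.4, 54.4 and 63.4 CPM, which overlapped the LL37 libraries (0.16 ± 0.12, adjusted p = 0.351). The members of 1 helicase ring therefore ranged from 0.16 (Mcm7) to 0.78 (Mcm4) in this comparison.

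Among the mitotic genes, Mki67 stood at 52.8, 53.3 and 56.8 CPM in LL37+RAPA (0.92 ± 0.26, adjusted p = 0.0271). Plk1 stood at 11.8, 12.5 and 13.1 CPM (0.92 ± 0.25, adjusted p = 0.0231), Cdc20 at 24.0, 22.6 and 24.4 (0.96 ± 0.26, adjusted p = 0.0215) and Ccnb1 at 14.8, 13.7 and 12.6 (1.04 ± 0.32, adjusted p = 0.036). The 3 LL37+RAPA libraries of each gene lay close together and below every LL37 library, as they did for all 19 mitotic genes. Called as well were Ccna2, Aurka, Aurkb, Bub1b, Cenpa, Cenpe, Kif11 and Ube2c, with log2 fold changes between 0.77 (Cenpa) and 1.13 (Kif11).

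The mitotic genes that were not called were Cdk1, Ccnb2, Birc5, Kif23 and Foxm1. Cdk1 stood at 15.0, 15.8 and 16.7 CPM in LL37+RAPA (0.95 ± 0.34, adjusted p = 0.0596), Birc5 at 15.0, 14.7 and 16.5 (0.74 ± 0.33, adjusted p = 0.121) and Ccnb2 had 0.76 ± 0.32. Kif23 stood at 14.3, 14.0 and 13.7 CPM (0.65 ± 0.25, adjusted p = 0.0789). Foxm1 stood at 15.0, 17.6 and 16.1 CPM, with the smallest difference of the mitotic genes (0.47 ± 0.28, adjusted p = 0.238). None of these 5 genes overlapped between the groups.

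The regulators were divided. Ccne1 stood at 6.07, 5.12 and 5.36 CPM in LL37+RAPA (0.88 ± 0.26, adjusted p = 0.0296) and Ccne2 at 5.03, 4.22 and 6.58 (0.65 ± 0.22, adjusted p = 0.0484), and both E-type cyclins were called. E2f1 stood at 22.1, 22.5 and 22.6 CPM (0.38 ± 0.17, adjusted p = 0.134) and Chek1 at 5.55, 3.64 and 4.46 (0.65 ± 0.26, adjusted p = 0.0851). Ccnd1 stood at 57.5, 60.4 and 56.3 CPM (-0.04 ± 0.11, adjusted p = 0.809) and Myc at 103, 132 and 118 (-0.24 ± 0.19, adjusted p = 0.398), and for both the libraries overlapped and the mean was higher with RAPA. The sign for Ccnd1 turned when LL37 replicate 1 or LL37 replicate 2 was left out, at 0.0192 and 0.00304.

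The count of 28 changed with single libraries. It was 14 without LL37 replicate 1, 11 without LL37 replicate 2, and 8, 12 and 10 without LL37+RAPA replicates 1, 2 and 3, and without LL37 replicate 3 it was 30. Calls over all tested genes, in either direction, moved too, from 4359 with all libraries. They numbered 2089 and 2859 without LL37 replicates 1 and 2, and 6408 without LL37 replicate 3. Without LL37+RAPA replicates 1, 2 and 3 they numbered 2171, 3208 and 2646. The difference of the medians, replication minus mitotic, was -0.30, and it lay between -0.39 and -0.23 when single libraries were left out. Of the 19 mitotic genes, 18 lay above the replication median in this comparison.

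LL37+RAPA skin was next compared with control skin, a comparison that shares libraries with both of those above. All 43 genes had higher means in LL37+RAPA than in control, 12 of them were called, against 5.03% of all tested genes called higher, and 39 of 43 had no overlap between the groups, against 16.9%. Called were the replication genes Mcm3, Mcm5, Mcm7, Mcm10, Cdc6, Cdt1 and Rrm2, the regulators Ccnd1, Myc and E2f1, and the mitotic genes Aurkb and Plk1. The medians of the lists were 0.63 (replication), 0.67 (regulators) and 0.69 (mitotic), so the lists lay closer together than in LL37 vs control. The difference of medians, replication minus mitotic, was -0.06, and between -0.23 and 0.0045 when single libraries were left out. In LL37 vs control that range was -0.47 to -0.24, so its upper end lay close. Mcm10 was the single DEG, at 1.25 ± 0.33 (adjusted p = 0.0257), against 2.15% of all tested genes.

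Ccnd1 had the smallest p of the 43 genes in this comparison, at 0.71 ± 0.11 (adjusted p = 0.00112), and Myc was at 0.84 ± 0.20 (adjusted p = 0.0142). Cdt1, Rrm2 and Ccnd1 were the 3 genes called under all 20 alternatives. The count of 12 was less stable than the direction: it was 5, 6 and 5 without control replicates 1, 2 and 3, 4 and 6 without LL37+RAPA replicates 2 and 3, and 26 without control+RAPA replicate 2, a library that belongs to neither group. Without LL37 replicate 3 it was 17. Over all tested genes, 2527 were called in either direction with all libraries. That number was 1880, 1870 and 1632 without control replicates 1, 2 and 3, and 1373 and 1594 without LL37+RAPA replicates 2 and 3. It was 2475 without control+RAPA replicate 2 and 3417 without LL37 replicate 3.

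RAPA alone gave no called gene in edgeR. Of the 43 genes, 0 were called in control+RAPA vs control, against 0.0% of all tested genes, and 8 had an unadjusted p under 0.05 (Top2a, Uhrf1, Mcm2, Mcm3, E2f1, Kif11, Aurka and Bub1), against 8.65% of all. DESeq2 called 1 of the 43 genes, Bub1, as lower, against 0.438% of all genes with an adjusted p in DESeq2. Bub1 stood at 1.68, 1.53 and 1.09 CPM in control+RAPA, below all 3 control libraries (-1.08 ± 0.22, adjusted p = 0.281 in edgeR and 0.0102 in DESeq2). Lower means than in control were found for 39 of 43 genes, the exceptions being Mcm7, Ccnd1, Ccne2 and Myc, and for all 19 mitotic genes. Of the 43 genes, 6 lay below all control libraries (Mcm2, Mcm3, Cdc45, Uhrf1, Aurka and Bub1), against 7.42% of all tested genes, and 1 lay above them (Mcm7), against 8.25%.

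The median log2 fold changes were -0.28 for replication, -0.09 for regulators and -0.40 for mitotic genes, and these values moved with 1 library. Control+RAPA replicate 2 held the lowest level of all 12 libraries for 35 of the 43 genes, among them 18 of the 19 mitotic genes. Its summed mitotic level was 94.0 CPM, against 227 and 168 in the other control+RAPA libraries and 162, 256 and 249 in control. Mki67, for example, stood at 35.8, 14.0 and 24.2 CPM in control+RAPA, and Top2a at 32.4, 14.5 and 25.0. Without that library the medians were -0.11 for replication and -0.08 for mitotic genes.

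The response to LL37 was also compared among mice that all received RAPA. This comparison shares the LL37+RAPA libraries with both comparisons above that use them. In LL37+RAPA vs control+RAPA, 38 of 43 genes were called higher, against 8.2% of all tested genes, 20 were DEGs, against 4.07%, and 41 did not overlap, against 19.5%. The medians were 0.84 for replication, 0.75 for regulators and 1.14 for mitotic genes. In the same comparison 5 of 6 macrophage, 4 of 5 fibroblast and 3 of 6 tested neutrophil markers were called higher, with medians of 1.06, 1.09 and 3.53. Of the 7 basal keratinocyte markers 0 were called in either direction, with a median of 0.08. The same held for the stress keratin, T cell, endothelial and mast cell markers tested. Of 5 suprabasal keratinocyte markers, 0 were called higher and 1 lower. The part of any of these cells in the rise was not tested. The genes not called were Mcm7, Ccne2, Myc, Kif23 and Cdc20. The count was 25, 22 and 24 without LL37+RAPA replicates 1, 2 and 3, 27 without control+RAPA replicate 2 and 40 without LL37 replicate 3. Calls over all tested genes, in either direction, moved from 3338 to 2703, 1982, 2362, 2382 and 4198 in the same fits.

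Mcm10 had the largest fold change with RAPA in both groups, from 2.44, 0.889 and 1.73 CPM in control+RAPA to the LL37+RAPA values given above (1.87 ± 0.34, adjusted p = 0.00297). Bub1 had the smallest p (1.43 ± 0.22, adjusted p = 0.000957), and E2f1 rose from 10.5, 7.21 and 12.8 CPM in control+RAPA by 1.14 ± 0.18 (adjusted p = 0.00121). Ccne2, at 4.72, 4.59 and 6.96 CPM in control+RAPA, did not differ beyond its error (-0.04 ± 0.22, adjusted p = 0.934), and its sign turned to 0.146 with library size as the only scaling.

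**Figure D4:**
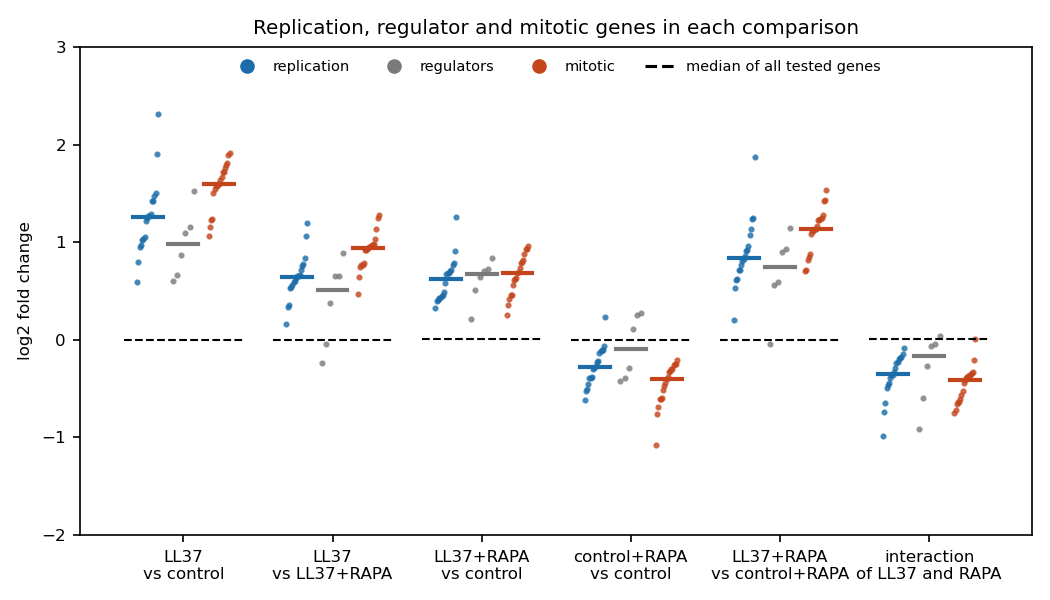
Log2 fold change of each gene (points) by list in each comparison, with the median of the list as a bar and the median of all tested genes as a dashed line. Mitotic genes have the highest median in LL37+RAPA vs control+RAPA and in both comparisons that use the LL37 group, and the lowest in control+RAPA vs control.

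Whether RAPA acted more strongly in LL37 skin than in control skin was tested as an interaction, the effect of RAPA in LL37 skin minus its effect in control skin. Rrm2 was the 1 gene of 43 called, with a negative interaction of -0.98 ± 0.21 (adjusted p = 0.0349), against 1.13% of all tested genes called negative. Its control+RAPA libraries stood at 13.9, 11.1 and 15.0 CPM, so RAPA went with a difference of -0.22 ± 0.15 in control skin and with the 2.30-fold difference given above in LL37 skin. The interaction was negative for 41 of 43 genes, with a median of -0.37, and the 2 positive values were those of E2f1 (0.04 ± 0.25) and Foxm1 (0.01 ± 0.39).

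At an unadjusted p under 0.05 there were 6 genes (Pcna, Mcm7, Mcm4, Rrm2, Cdc6 and Ccne2), against 22.5% of all tested genes, and 0 of the 19 mitotic genes. DESeq2 called 2 of the 43 genes negative, Rrm2 and Cdc6, against 4.15% of all genes with an adjusted p in DESeq2. Without LL37 replicate 3, edgeR called 4 of the 43 negative (Pcna, Mcm4, Rrm2 and Cdc6), against 7.37% of all tested genes, so these counts lie near the share over all genes. The call for Rrm2 was lost without control replicate 1 or 3, LL37 replicate 1 or 2, LL37+RAPA replicate 1 or 3, or control+RAPA replicate 1 or 3, with adjusted p between 0.0613 and 0.0976, while its value stayed between -1.09 and -0.87 whichever library was left out. For the mitotic genes, a difference between the effects of RAPA in LL37 skin and in control skin was therefore not shown.

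The means of the 4 groups rose in the order control+RAPA, control, LL37+RAPA and LL37 for 39 of the 43 genes, including all 19 mitotic, 17 of 18 replication and 3 of 6 regulator genes. The lower neighbours in this order, control+RAPA and control, did not differ for any gene by edgeR's test. Myc and Ccnd1 were highest in LL37+RAPA, Mcm7 was lowest in control, and Ccne2 was higher in control+RAPA than in LL37+RAPA. Summed over the 19 mitotic genes the level was 162 to 256 CPM in control, 94.0 to 227 in control+RAPA, 650.1 to 717 in LL37 and 344 to 351 in LL37+RAPA. The replication sums were 341 to 439, 275 to 394, 760.3 to 1011 and 551 to 580.

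Spread between libraries differed by group. The coefficient of variation of the mitotic genes had a median of 5.23% in LL37+RAPA, 9.43% in LL37, 24.4% in control and 44.1% in control+RAPA. For the replication genes the medians were 6.15%, 15.4%, 12.9% and 20.2%. LL37 replicate 3, which stood apart on the first principal component, was the lowest LL37 library for 14 of 18 replication genes but for 4 of 19 mitotic genes, and LL37 replicate 2 was the highest of all 12 libraries for 31 of the 43 genes.

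Compared per kilobase of exon, levels also varied widely between genes. Pcna was the highest in both control and LL37, at 31.7 and 64.7 CPM per kilobase, followed by Myc at 24.1 and 36.7. Mcm10 was lowest in control, at 0.334 CPM per kilobase, and Chek1 lowest in LL37, at 1.54. Exons of 3 of the 43 genes overlap another gene on the same strand (Mcm7, Foxm1 and Top2a) and those of 10 overlap one on the other strand, and whether the counting used strand is not stated, so their counts are less certain. For Ube2c the partner is the muscle gene Tnnc2, which was listed at 0 to 0.485 CPM. That is low beside the 6 skeletal muscle markers, which summed to 16538 CPM or more in every control library. Whether reads of Tnnc2 were lost or counted for Ube2c was not tested.

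Wider lists of the same pathways, which hold none of the 43 genes, were counted in the same fit. Over all tested genes, 21.0% were called higher and 21.6% lower in LL37 than in control. The shares in LL37 vs LL37+RAPA were 11.8% and 12.4%. Of 45 other replication genes, 35 were called higher and 0 lower in LL37 than in control, and 17 and 0 in LL37 than in LL37+RAPA, with medians of 0.80 and 0.40. Of 61 other mitotic genes, 58 were called higher and 0 lower in LL37 than in control, and 30 and 0 in LL37 than in LL37+RAPA, with medians of 1.31 and 0.74. Smc4, a condensin subunit, had the smallest p of these in LL37 vs control (0.95 ± 0.08, adjusted p = 8.09e-06), followed by Cks1b, which binds the cyclin-dependent kinases (1.25 ± 0.15), and the condensin gene Ncaph (1.43 ± 0.18). Among the replication genes these were Gmnn, an inhibitor of Cdt1 (1.27 ± 0.13, adjusted p = 2.97e-05), and the maintenance DNA methyltransferase gene Dnmt1 (0.84 ± 0.10).

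In LL37 vs LL37+RAPA the smallest p values of the other replication genes were those of Dnmt1 (0.65 ± 0.10, adjusted p = 0.0021), Gmnn (0.71 ± 0.13) and the fork protection gene Tipin (0.78 ± 0.17). Those of the other mitotic genes were Oip5, a centromere gene (1.34 ± 0.25, adjusted p = 0.00467), Incenp of the chromosomal passenger complex (0.82 ± 0.16) and Smc4 (0.41 ± 0.08). Both wider lists had 0 genes called lower in the 5 comparisons of groups.

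Genes upstream of S phase were more mixed. Of 11 other G1 cyclins, kinases and E2F factors, 7 were called higher in LL37 than in control, against 21.0% of all tested genes. They were led by Cdk6 (1.13 ± 0.15, adjusted p = 0.00018), the repressor E2f7 (1.69 ± 0.25) and the E2F partner Tfdp1 (0.76 ± 0.12). In LL37 vs LL37+RAPA 5 were called higher and 1 lower, against 11.8% and 12.4% of all tested genes. The lower gene was Ccnd2, the cyclin D2 gene, at 57.5 ± 10.2 CPM (SD, n = 3) in LL37 and 97.5 ± 4.83 in LL37+RAPA (-0.76 ± 0.16, adjusted p = 0.00754), while Tfdp1 (0.56 ± 0.12) and Cdk6 (0.72 ± 0.15) were higher in LL37.

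Of 18 inhibitors and quiescence genes, 6 were called higher and 2 lower in LL37 than in control, against 21.0% and 21.6% of all tested genes, so this list did not stand far from the share over all genes. Ccng1, the cyclin G1 gene and a target of p53, fell from 165 ± 28.3 to 48.5 ± 1.94 CPM (-1.76 ± 0.14, adjusted p = 4.8e-06), and Rbl2, a pocket protein of resting cells, by 0.55 on the log2 scale. Higher were Rbl1, a pocket protein of cycling cells (0.81 ± 0.14), and Cdkn2d, an inhibitor of the cyclin D kinases (1.45 ± 0.25), among others. In LL37 vs LL37+RAPA, Cdkn2d (1.33 ± 0.25, adjusted p = 0.00434) and E2f4 (0.44 ± 0.12) were higher and Cdkn2c, another inhibitor of those kinases, was lower (-0.62 ± 0.12, adjusted p = 0.00483). Compared with control, Cdkn2c was called higher both in LL37 (0.36 ± 0.12) and in LL37+RAPA (0.98 ± 0.12). Ccng1 was also called lower in LL37+RAPA than in control (-1.66 ± 0.14, adjusted p = 1.94e-05 in edgeR).

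Markers of several cell types also differed between the groups, though not all in the order found for most of the 43 genes. The shares over all tested genes were 21.0% called higher and 21.6% lower in LL37 vs control. They were 11.8% and 12.4% in LL37 vs LL37+RAPA, and 8.2% were called higher in LL37+RAPA vs control+RAPA. The 3 stress keratin genes Krt6a, Krt6b and Krt16 summed to 251 to 1315 CPM in control, 406 to 652 in control+RAPA, 4316 to 8270.0 in LL37 and 585 to 1177 in LL37+RAPA, and 3 of 3 were called higher in LL37 in both comparisons with control and LL37+RAPA, and 0 of 3 in LL37+RAPA vs control+RAPA. The 7 basal keratinocyte markers summed to 12642 to 17505 CPM in control, 12626 to 15147 in control+RAPA, 21454 to 22116 in LL37 and 15317 to 16833 in LL37+RAPA, with 4 of 7 called higher and 1 of 7 called lower in LL37 than in control. In LL37 vs LL37+RAPA 2 of these 7 were called higher and 1 lower. Neutrophil markers summed to 21.5 to 93.2 CPM in control, 33.7 to 55.8 in control+RAPA, 282 to 2622 in LL37 and 151 to 493 in LL37+RAPA, with 6 of 6 tested genes called higher in LL37 than in control and 3 of 6 in LL37+RAPA than in control+RAPA. Macrophage markers, all 6 called higher in LL37 than in control, summed to 622 to 1046 CPM in control, 598 to 744 in control+RAPA, 1560 to 1936 in LL37 and 1482 to 2509 in LL37+RAPA. The 5 fibroblast markers summed to 1674 to 3926 CPM in control, 1432 to 1722 in control+RAPA, 2558 to 3747 in LL37 and 3139 to 4562 in LL37+RAPA, and 2 were called higher and 1 lower in LL37 than in control. T cell markers summed to 10.9 to 14.3 CPM in control, 6.73 to 8.35 in control+RAPA, 17.3 to 20.1 in LL37 and 7.53 to 8.97 in LL37+RAPA. Of the 4 T cell markers tested, 4 were called higher in LL37 than in LL37+RAPA and 1 in LL37 than in control, whereas in LL37+RAPA vs control, where all 43 genes had higher means, 1 was called lower and the median was -0.50. Of 5 suprabasal keratinocyte markers, 0 were called higher and 1 lower in LL37 vs control, and 2 higher and 0 lower in LL37 vs LL37+RAPA. Of 4 endothelial markers, 0 were called higher and 1 lower in each of these comparisons, and of 5 mast cell markers 0 were called in either. The part of these cell types in the changes of the 43 genes was not tested.

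The 6 skeletal muscle markers moved opposite to the 43 genes. They summed to 16538 to 25805 CPM in control and 19799 to 35049 in control+RAPA. With LL37 they summed to 12.03 to 456, and in LL37+RAPA to 1745 to 3978. Removing these 6 markers before normalization moved the median of all tested genes in LL37 vs control by only -0.00031. All 43 genes were again called, but so small a shift could not show whether the loss of muscle matters for them. The 5 adipocyte markers summed to 889 to 1561 CPM in control, 1019 to 2651 in control+RAPA, 282 to 547 in LL37 and 1857 to 2135 in LL37+RAPA. The 7 hair matrix and inner sheath markers found summed to between 15.6 and 37.2 CPM in all 12 libraries.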

How the data were processed

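RNA from back skin of 12 mice, 3 per group, was sequenced, and groups were taken from the sample labels. The authors deposited raw read counts per gene, and per the labels the processing notes name HISAT2 2.0.5, StringTie 1.3.3b, featureCounts 1.5.0-p3, DESeq2 1.16.1 and the mm10 build. The study's methods name another counter, so the tool that made the counts is not settled here, nor is whether it used strand. Gene IDs were matched to GENCODE M21 symbols for 52489 of 52636 genes.

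Counts were analysed in R 4.3.3 with edgeR 4.0.16: filterByExpr by group, TMM normalization, and quasi-likelihood tests of 6 contrasts in 1 fit of all 12 libraries, with Benjamini-Hochberg adjustment over 17993 genes. CPM values are TMM-normalized. The fit was tested on simulated data. Depth was 15734559 to 23271784 counts per library, and no libraries of a group agreed within sampling noise. Alternatives were DESeq2 1.42.0, other scalings and filters, a fit of the groups compared, a replicate block, and leaving out each library in turn. Per-library values are given for 22 genes chosen by symbol and for the genes with the lowest and highest fold change of each list in the 2 comparisons that use the LL37 group, and for each wider list the 3 genes with the smallest p, of which 1 is not reported here. The 43 genes and all lists were chosen with earlier results of these data known, so no test was applied to a list as a whole. No library was left out of the reported values.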

Additional observations from a re-analysis of the deposited data

Results flagged for a closer look

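Rrm2, the regulated subunit of ribonucleotide reductase, was marked for a closer look because the effect of RAPA differed between LL37 skin and control skin by a test of the difference itself (interaction -0.98 on the log2 scale, SE 0.21, adjusted p = 0.0349 in edgeR). This call was lost in 8 of the 12 fits that each left out 1 library, with adjusted p between 0.0613 and 0.0976 in edgeR. Rrm2 was the 1 gene of 43 called negative, against 1.13% of all tested genes, so the count lies near that share. Its CPM was lower with RAPA in 3 of 3 libraries of LL37 skin, whereas the control and control+RAPA libraries overlapped. The part of any cell type or library in this difference was not tested.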

How the results depend on the processing

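All 43 genes stayed higher in LL37 than in control under the alternatives run, with 42 to 43 called when single libraries were left out. In LL37 vs LL37+RAPA the count of 28 became 6 with the fold limit and 8 to 33 with single libraries left out. In LL37+RAPA vs control the count of 12 became 25 with library size only, 20 without the filter, 23 with DESeq2, 28 with only the groups compared, 1 with the fold limit, 34 at an unadjusted p, and 4 to 26 with single libraries left out. In control+RAPA vs control the count of 0 became 1 with DESeq2 and 8 at an unadjusted p. In LL37+RAPA vs control+RAPA the count of 38 became 20 with the fold limit and 22 to 40 with single libraries left out. For the interaction the count of 1 became 2 with DESeq2, 0 with the fold limit, 6 at an unadjusted p and 0 to 4 with single libraries left out. With single libraries left out, calls over all tested genes ran from 2089 to 6408 in LL37 vs LL37+RAPA and from 1373 to 3417 in LL37+RAPA vs control. They ran from 1982 to 4198 in LL37+RAPA vs control+RAPA and from 2 to 3145 for the interaction. The cause was not tested, except that the fold limit and fewer libraries act by construction.

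The difference of medians, replication minus mitotic, ranged with single libraries left out from -0.0321 to 0.414 in control+RAPA vs control and from -0.641 to -0.121 in LL37+RAPA vs control+RAPA. Ccnd1 in LL37 vs LL37+RAPA turned to 0.0192 and 0.00304 without LL37 replicates 1 and 2, within a range of -0.148 to 0.0192 over single libraries left out. Ccne2 in LL37+RAPA vs control+RAPA turned from -0.04 to 0.146 with library size only, 0.0995 without LL37+RAPA replicate 2 and 0.195 without control+RAPA replicate 3, within a range of -0.23 to 0.195. Library size only moved the median of all tested genes by 0.13 in LL37+RAPA vs control and by 0.19 in LL37+RAPA vs control+RAPA, so the values with that scaling are to be read relative to these shifts.

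Replicate numbers are shared between groups but did not pair the libraries, since correlations of same-numbered deviations ran from -0.188 to 0.263. With the replicate block the counts were 20 in LL37 vs LL37+RAPA, 9 in LL37+RAPA vs control, 33 in LL37+RAPA vs control+RAPA and 0 for the interaction, where Rrm2 had an adjusted p of 0.059. With 3 libraries per group, a missed threshold does not show that levels were equal.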
